A study of Mus musculus with 3 samples.

Results

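The genes described here encode the NF-κB transcription factors and proteins that are grouped here as their inhibitors. They are the 5 subunit genes Nfkb1, Nfkb2, Rel, Rela and Relb and the 5 inhibitor genes Nfkbia, Nfkbib, Nfkbie, Nfkbiz and Tnfaip3. They were chosen by name, from the known biology of the pathway and with earlier results of these data known. The match to the files was by NCBI Gene ID. All 10 were listed in each of the 3 libraries, among 16742 genes listed in any library. Wild type C57BL/6 mice gave the control, lin- bone marrow cells, which remain once cells with mature lineage markers have been removed. Sorted GFP+ bone marrow cells of C57BL/6 mice with the genotype TBLR1-RARa gave the other 2 libraries, TR1 and TR9. TBLR1-RARα (TR) is a fusion of TBLR1 with the retinoic acid receptor alpha that was found in acute promyelocytic leukemia (APL), and GFP marks the cells that carry its retroviral vector. TR1 and TR9 name the primary leukemic mice from which each line was passaged, and the cells sequenced came from the third generation of transplantation. Each library pooled 3 mice of 6 to 8 weeks, and there was 1 library per condition. The control cells were neither transduced nor transplanted, and no removal of mature cells is described for the TR libraries. The fusion gene, transplantation, the sort for GFP and that removal therefore cannot be told apart as sources of a difference from control.

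In resting cells, NF-κB dimers are held in the cytoplasm by IκB proteins. Signals from receptors such as those for tumor necrosis factor and interleukin-1 activate the IκB kinase (IKK), the IκB protein is degraded and the dimer enters the nucleus. NF-κB then switches on the genes of several of its own inhibitors, which ends the response. In the marrow, the pathway is known for its part in inflammatory signaling of myeloid cells and in the survival of leukemia cells.

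NF-κB dimers bind short DNA elements that resemble the κB consensus motif, and sequences upstream of these genes are shown for this reason. RefSeq promoter windows (build GRCm38.p6), which run from 250 bases before to 50 bases after a transcript start, were on hand for 7 of the 10 genes, and Nfkb2 had 3 such windows and Tnfaip3 had 2. Nfkb1, Relb and Nfkbiz had no entry. The consensus motif was searched for on both strands, and overlapping matches were merged. Nfkbia, the gene with the largest difference from control, had 1 match, which begins 29 bases before the start and reads GGGAATTTCC on the strand opposite to the gene. Its 250 upstream bases, chr12:55492648-55492897 on the minus strand, follow with the match in capitals.
Nfkbia: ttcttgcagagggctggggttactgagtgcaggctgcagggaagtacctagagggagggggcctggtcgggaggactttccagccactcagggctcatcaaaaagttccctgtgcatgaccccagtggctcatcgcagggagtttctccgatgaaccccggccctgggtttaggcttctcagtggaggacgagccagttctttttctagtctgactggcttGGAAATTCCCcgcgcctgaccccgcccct

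Matches were also found for Nfkb2, Rel, Nfkbie and Tnfaip3, in 9 separate stretches in all with that of Nfkbia. They are shown in capitals with 10 bases on either side, on the strand of the gene, so that the core of each site can be compared, and the coordinates are those of the match. A further 2 stretches of Nfkb2, near its other starts, are not shown. For the Nfkb2 stretch at 39 bases and for Rel, only 1 of the overlapping matches is in capitals. The merged stretch also takes in the match at chr19:46304699-46304708 for Nfkb2 and at chr11:23771051-23771060 for Rel.
Nfkb2, first start, 39 bases before it, chr19:46304698-46304707, plus strand: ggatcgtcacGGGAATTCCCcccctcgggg
Nfkb2, first start, 11 bases before it, chr19:46304726-46304735, plus strand: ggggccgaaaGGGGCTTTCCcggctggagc
Rel, 92 bases before the start, chr11:23771052-23771061, minus strand: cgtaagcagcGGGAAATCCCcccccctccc
Nfkbie, 106 bases before the start, chr17:45555594-45555603, plus strand: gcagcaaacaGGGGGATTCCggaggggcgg
Tnfaip3, first start, 125 bases before it, chr10:19015526-19015535, minus strand: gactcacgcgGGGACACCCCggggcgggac
Tnfaip3, first start, 12 bases before it, chr10:19015413-19015422, minus strand: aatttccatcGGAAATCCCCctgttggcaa
Rela and Nfkbib had no match in their windows. Of the 7 genes with a window, 5 (71.4%) thus held the motif, against 1388 of 27025 genes (5.14%) in the whole promoter table. The genes were chosen partly because NF-κB is known to induce several of them, so this share describes the list and was not tested. A match is not evidence of binding in these cells.

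**Figure D1:**
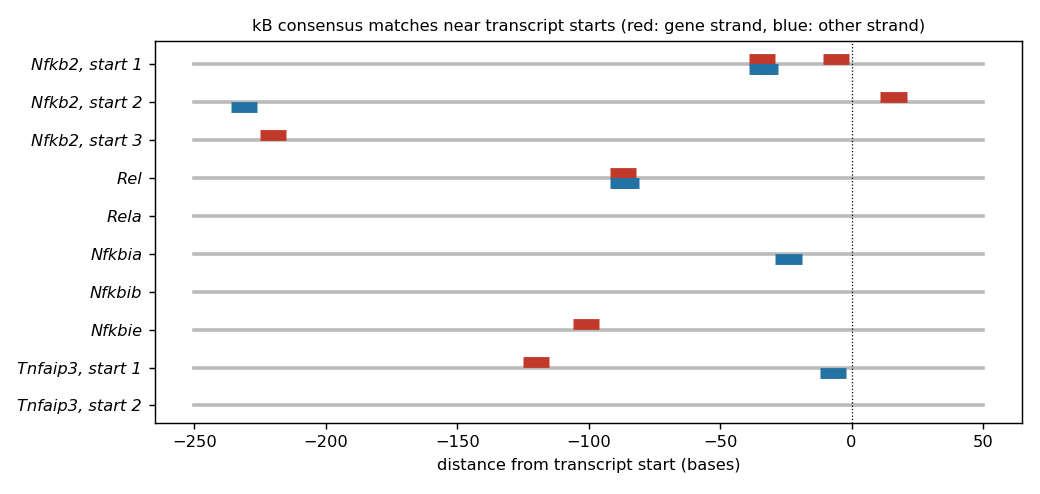
Positions of κB consensus matches in the 10 promoter windows of 7 genes. The horizontal axis gives the distance from the transcript start in bases, each grey line is a window, and boxes mark matches on the strand of the gene (red) or on the other strand (blue). Nfkbia has 1 match that begins 29 bases before the start, and Rela, Nfkbib and the second start of Tnfaip3 have none.

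Expected counts summed to between 5129662 and 5571409 per library. A gene was called when the false discovery rate of a conditional exact Poisson test on its counts was at most 0.001 and its FPKM differed by at least 2-fold, as in the methods of the study. FPKM are fragments per kilobase of gene length, scaled to the library total, and levels of different genes are compared below only in this unit. The test compares 2 libraries and not the conditions, because no condition has a second library, and the 95% intervals cover counting error only. Intervals around an FPKM are exact Poisson and those around a fold are exact conditional binomial (Clopper-Pearson). The log2 ratio of a typical gene against control was below 0. Its median was -0.29 for TR1 and -0.12 for TR9, and TMM scaling, which sets most genes level between libraries, raised it by 0.25 and 0.11. The 10 genes had whole expected counts in every library, within 0.005, so there was no sign that their reads had been divided with other genes.

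Of the 10 genes, Nfkbia and Nfkbiz were upregulated in both TR1 and TR9, no gene was downregulated, and the 5 subunits were not called in either line. Upregulated genes made up 20% of the members in each line. Over all genes the share was 8.09% of the 16282 tested in TR1 and 9.37% of the 16303 tested in TR9. The members were chosen with earlier results of these data known, and the difference in share was not tested. Upregulated and downregulated genes numbered 1318 and 2120 in TR1 and 1527 and 1766 in TR9, and together made up 21.1% and 20.2% of those tested. This balance depended on the scaling, since TMM gave 1694 and 1591 in TR1 and 1717 and 1503 in TR9, and TPM gave 1062 and 2918 in TR1 and 1370 and 2064 in TR9. The median over the members was 0.04 for TR1 and 0.24 for TR9 on the log2 scale, beside medians of -0.29 and -0.12 over all genes. With TPM scaling the median in TR1 was -0.19 over the members and -0.52 over all genes. Both comparisons use the same control library, and a deviation of that library would appear in both. In bulk RNA, fewer cells of a type and less RNA per cell cannot be told apart.

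**Figure D2:**
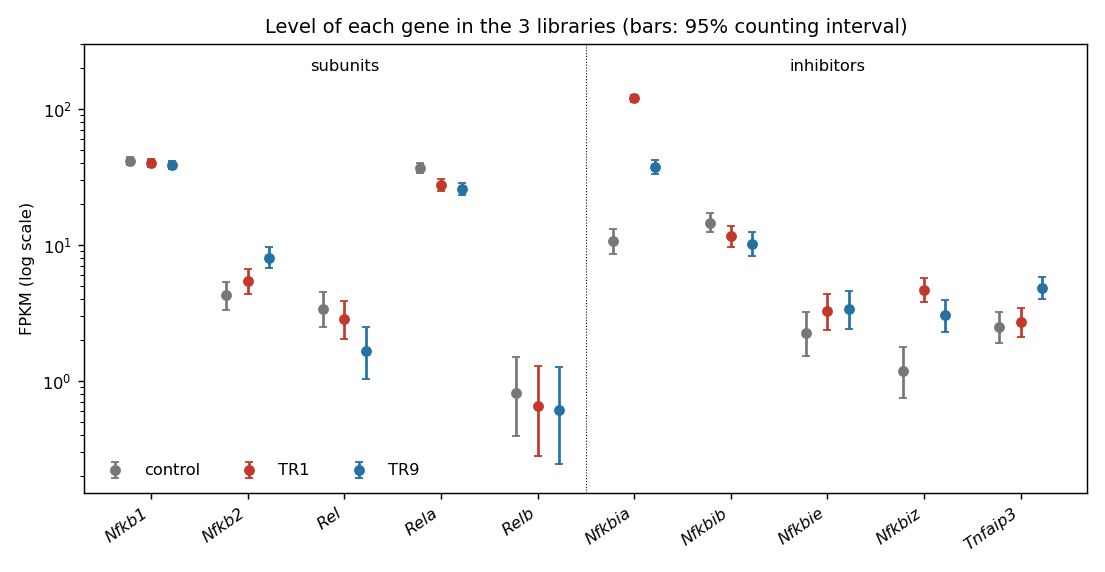
Level of the 10 genes in FPKM, on a log axis, in the control, TR1 and TR9 libraries. Points are the deposited values and bars the 95% exact Poisson counting intervals, with subunits to the left of the dotted line. Nfkbia stands at 10.6, 119.62 and 37.42 FPKM in turn, while the levels of Nfkb1 lie between 38.9 and 41.61.

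Nfkbia encodes IκBα, the inhibitor that binds RelA dimers and is resynthesized soon after NF-κB is activated. Its expected counts were 92, 1057 and 304 in control, TR1 and TR9, which correspond to 10.6, 119.62 and 37.42 FPKM. The control library was the lowest and TR1 the highest, and the counting intervals of the 3 levels did not overlap. Nfkbia was 11.3-fold higher in TR1 than in control (95% interval 9.11 to 14.1) and 3.53-fold higher in TR9 (2.79 to 4.51). Relative to the median of all genes, its log2 ratio was 3.79 for TR1 and 1.94 for TR9. By FPKM it ranked 6614th of the 15302 genes listed in control, 507th of 14642 in TR1 and 2144th of 14817 in TR9. Both calls held under each of the 7 other settings described in the methods. Late granulocyte markers, 8 of 8 above 0 in each library, summed to 92.7, 23162 and 8948 FPKM in control, TR1 and TR9, the order that Nfkbia and Nfkbiz have. Between the lines the sum followed mainly S100a9 and S100a8. Of the 8 markers, 5 were lower in TR9 than in TR1, Camp and Ngp were higher, and Ltf was not called. Their part in the levels of these genes was not tested. Among 11094 genes with at least 50 counts over the libraries, the 3 whose pair of log2 ratios lay nearest to that of Nfkbia were Rab11fip4, Pmaip1 and Slfn2, at distances of 0.16 to 0.20 on the log2 scale. This likeness rests on 3 libraries and on ratios that share the control.

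Nfkbiz encodes IκBζ, a nuclear IκB-like protein that is itself induced by inflammatory signals and acts on the transcription of secondary response genes. It had 23, 94 and 57 expected counts in control, TR1 and TR9, or 1.19, 4.7 and 3.04 FPKM. Both TR libraries lay above control, and their intervals overlapped each other but not that of control. Nfkbiz was 3.95-fold higher in TR1 (95% interval 2.48 to 6.53) and 2.55-fold higher in TR9 (1.55 to 4.34). Neither call held when a biological variation of 0.2 was assumed in the exact test of edgeR, and in TR9 a pseudocount of 1 FPKM lowered the log2 ratio from 1.35 to 0.88, under the threshold.

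Tnfaip3 encodes A20, a ubiquitin-editing enzyme that acts upstream of IKK. It had 61, 68 and 110 counts in control, TR1 and TR9, or 2.48, 2.72 and 4.83 FPKM. TR9 was the highest, and its interval did not overlap those of control and TR1. The log2 ratio against control was 0.96 in TR9 (95% interval 0.50 to 1.44), just under the 2-fold threshold, and 0.13 in TR1 (-0.39 to 0.66). In TR9 the gene was called with TMM scaling, at 1.07, and with the median of ratios, at 1.06.

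Nfkbib and Nfkbie encode IκBβ and IκBε, the other cytoplasmic IκB proteins. Nfkbib, which is less dependent on NF-κB for its expression, had 155, 126 and 102 counts in control, TR1 and TR9, or 14.55, 11.62 and 10.23 FPKM. Its log2 ratio was -0.32 against control for TR1 (95% interval -0.68 to 0.02) and -0.51 for TR9 (-0.88 to -0.14). Nfkbie had 30, 44 and 42 counts, or 2.25, 3.25 and 3.37 FPKM, with log2 ratios of 0.53 for TR1 and 0.58 for TR9 whose intervals both included 0. Neither gene was called in any comparison.

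Among the subunits, Nfkb1, which encodes p105 and its product p50, and Rela, which encodes p65, form the classical dimer. Nfkb1 had 950, 926 and 831 expected counts in control, TR1 and TR9, or 41.61, 39.85 and 38.9 FPKM. The 3 intervals overlapped, and the log2 ratio was -0.06 against control for TR1 (95% interval -0.19 to 0.07) and -0.10 for TR9 (-0.23 to 0.04), so that a 2-fold difference lay far outside the counting error. The sign of these ratios turned with TMM scaling, at 0.19 in TR1 and 0.01 in TR9. Rela had 548, 419 and 361 counts, or 36.75, 27.6 and 25.87 FPKM. Both TR libraries lay below control with no overlap of intervals, and Rela was 1.33-fold lower in TR1 (1.17 to 1.52) and 1.42-fold lower in TR9 (1.24 to 1.63), short of the 2-fold threshold. Relative to the median of all genes, its log2 ratio was -0.12 for TR1 and -0.39 for TR9.

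Nfkb2, which encodes p100 and p52 of the alternative pathway, had 71, 94 and 128 counts in control, TR1 and TR9, or 4.25, 5.4 and 8.08 FPKM. Its log2 ratio was 0.35 against control for TR1 (95% interval -0.11 to 0.81) and 0.93 for TR9 (0.50 to 1.37). The interval in TR9 did not overlap those of the other libraries, and the gene was called there with TMM scaling, at 1.03, and with the median of ratios, at 1.02. Rel, which encodes c-Rel, had 48, 41 and 22 counts, or 3.38, 2.83 and 1.65 FPKM. Its log2 ratio in TR9 was -1.03 (-1.83 to -0.28), past 2-fold but not past the false discovery rate of 0.001, and it was called only when that rate was set at 0.05. Relb, the partner of p52, had 10, 8 and 7 counts, under 1 FPKM in each library. At this depth its interval in TR1 ran from -1.88 to 1.16 on the log2 scale, so that neither a 2-fold higher nor a 2-fold lower level could be told from no difference.

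**Figure D3:**
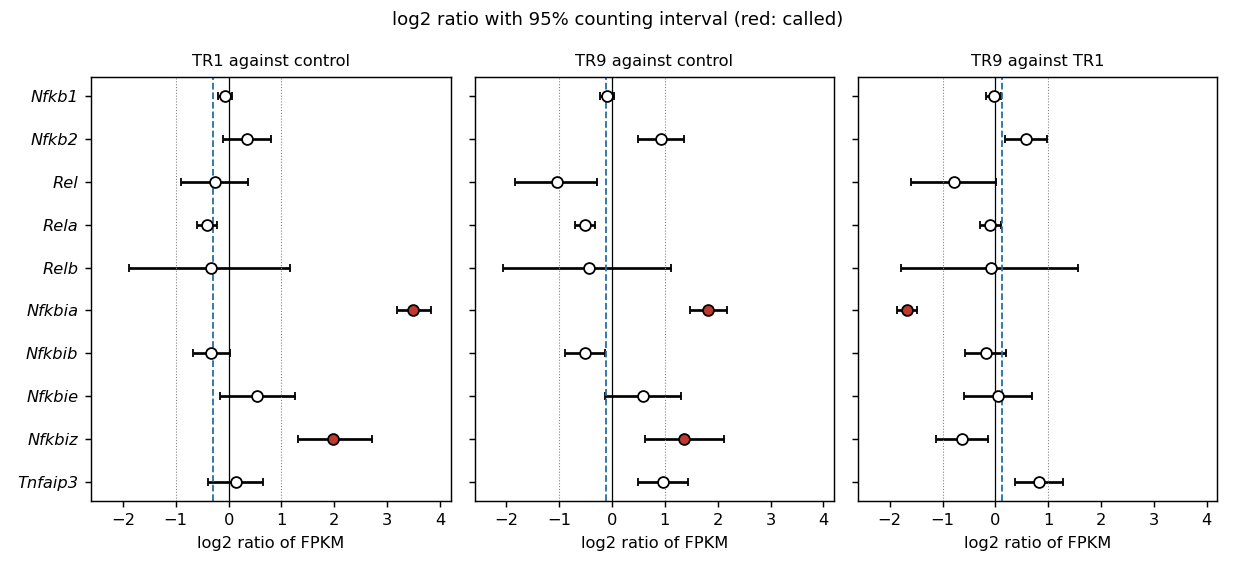
log2 ratio of FPKM for the 10 genes in the 3 comparisons, with 95% counting intervals. Filled points were called, dotted lines mark a 2-fold difference and the dashed line is the median of all genes. Nfkbia and Nfkbiz lie to the right of the 2-fold line in TR1 and TR9 against control, and Nfkbia lies to the left of it in TR9 against TR1.

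Ratios within a library do not depend on how libraries are scaled. Summed over the 5 subunits, the level was 86.81, 76.33 and 75.11 FPKM in control, TR1 and TR9. The 5 inhibitors summed to 31.07, 141.91 and 58.89 FPKM. The ratio of inhibitors to subunits was therefore 0.358, 1.86 and 0.784. With only the cytoplasmic IκB genes Nfkbia, Nfkbib and Nfkbie as inhibitors, it was 0.316, 1.76 and 0.679. Nfkbia alone accounted for 34.1%, 84.3% and 63.5% of the summed inhibitor level. The ratio of Nfkbia to Rela, the inhibitor and the subunit it binds, was 0.288, 4.33 and 1.45, whereas that of Nfkbib to Rela was 0.396, 0.421 and 0.395. Within the subunits, Nfkb1 and Rela together dominated, with 47.9% and 42.3% in control, 52.2% and 36.2% in TR1 and 51.8% and 34.4% in TR9. The share of Nfkb2 was 4.90%, 7.07% and 10.8%, and that of Rel was 3.89%, 3.71% and 2.20%. These RNA levels do not measure the proteins, which are regulated by degradation.

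**Figure D4:**
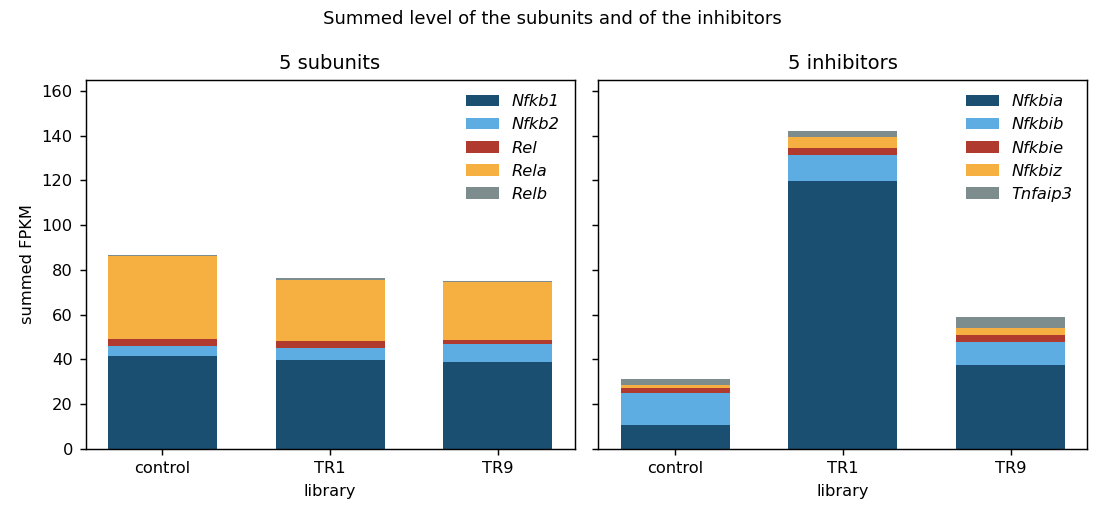
Summed FPKM of the 5 subunits (left) and of the 5 inhibitors (right) in each library, stacked by gene. The subunits sum to between 75.11 and 86.81 FPKM, and the inhibitors to 31.07, 141.91 and 58.89 in control, TR1 and TR9, with Nfkbia as the lowest block of each bar.

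Ordered by level, Nfkb1 and Rela led in control and their counting intervals overlapped. Nfkbib and Nfkbia came next, also with overlapping intervals. In TR1 Nfkbia led, apart from Nfkb1, and Nfkb1 was apart from Rela. In TR9 Nfkb1 and Nfkbia led and did not differ beyond their counting intervals. Nfkb2, Rel, Tnfaip3, Nfkbie and Nfkbiz lay between 1.19 and 8.08 FPKM in the 3 libraries. Neighbors among them in the order had overlapping intervals, apart from Nfkb2 and Tnfaip3 in TR9. Relb was the lowest in each library, and was set apart from its neighbor in TR1.

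Compared directly, Nfkbia was the single member called between the lines, 3.20-fold lower in TR9 than in TR1 (95% interval 2.81 to 3.64). That is 1 of 10 members, against 2.31% lower of the 15706 genes tested, and 6.65% called in either direction. The call was lost in the exact test of edgeR with the assumed variation. Tnfaip3 was higher in TR9, with a log2 ratio of 0.83 (0.38 to 1.29), and so was Nfkb2, at 0.58 (0.19 to 0.98). Nfkbiz was lower, at -0.63 (-1.13 to -0.14). These 3 intervals exclude 0, but none of the 3 genes was called. Nfkb1 and Rela had log2 ratios of -0.03 and -0.09, with intervals that included 0 and signs that turned with TPM scaling. Of the inhibitors, Nfkbia and Nfkbiz thus had their highest level in TR1 and Tnfaip3 in TR9. For Nfkbiz the FPKM intervals of the lines overlapped, and only the difference in Nfkbia was called.

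Another 103 genes of the pathway were sorted into 6 lists by role, and 99 of them were listed in a library. In TR1, 21 of the 97 tested (21.6%) were upregulated and 8 (8.25%) were downregulated, beside 8.09% upregulated and 2120 of 16282 downregulated over all genes. In TR9, 20 of 97 (20.6%) were upregulated and 10 (10.3%) were downregulated, beside 9.37% and 1766 of 16303. The downregulated share was therefore below that over all genes in TR1 and close to it in TR9. The counts of the single lists below rest on few genes and are to be read against the same shares. The split in TR1 was 25 and 5 with TMM scaling, 17 and 10 with TPM and 10 and 4 in the exact test of edgeR. The median over these genes was 0.02 for TR1 and 0.35 for TR9 on the log2 scale, beside -0.29 and -0.12 for all genes tested. With the assumed variation, the exact test of edgeR lost the calls below of Zc3h12a and Tnfrsf1a in both lines, of Ikbke, Tnfrsf1b and Bcl3 in TR1 and of Traf5 and Traf6 in TR9. Like the members, these lists were drawn up with earlier results of these data known, and no test of a list was made.

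In the list of other inhibitors and IκB-like proteins, 2 of 16 genes were upregulated in each line and none was downregulated, 12.5% beside the 8.09% and 9.37% over all genes. The number upregulated in TR1 was 5 with TMM scaling, 1 with TPM and 0 in the exact test of edgeR, and in TR9 it was 3, 1 and 0. Zc3h12a, an endonuclease that degrades inflammatory mRNAs, was upregulated in both, with 116.72, 248.61 and 244.58 counts in control, TR1 and TR9. Its log2 ratio in TR1 was 1.06, and it fell under the threshold with TPM scaling, at 0.84, and with a pseudocount of 1 FPKM, at 0.97. Bcl3, a nuclear partner of p50 and p52 that was picked after its values were seen, had 24, 79 and 7 counts. It was upregulated in TR1, with a log2 ratio of 1.69, and lower in TR9 than in TR1, at -3.37.

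Of the 16 IKK and signaling kinases, 2 were upregulated and 1 was downregulated in each line, 12.5% and 6.25% of the list. The downregulated gene was Tab3 in TR1, with a log2 ratio of -1.12, and Tab1 in TR9, at -1.27, both named after their values were seen. The call of Tab3 was lost with TMM scaling, the median of ratios, the pseudocount and the exact test of edgeR, and that of Tab1 in the last of these. The 3 subunits of IKK itself, also picked after their values were seen, were not called in either line against control. Chuk (IKKα) had 388, 257 and 304 counts in control, TR1 and TR9, Ikbkb (IKKβ) had 531, 556 and 526 and Ikbkg (NEMO) had 247.97, 245.86 and 320.66. Ikbke, an IKK-related kinase, was upregulated in both lines, with 183, 580 and 564 counts. Map3k8, a kinase that p105 binds, was also upregulated in both, with 5, 75 and 40 counts and log2 ratios of 3.89 and 3.11. A pseudocount of 1 FPKM lowered its log2 ratio in TR1 to 2.22.

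Among 19 adaptors and ubiquitin ligases, 4 were upregulated and 2 downregulated in each line. With TPM scaling 2 were upregulated in each, and in the exact test of edgeR 1. Card9, the adaptor of C-type lectin receptors, had 172, 652 and 668 counts in control, TR1 and TR9 and was upregulated in both. Traf6, the ubiquitin ligase below Toll-like and interleukin-1 receptors, was downregulated in both, with 405, 118 and 166 counts. Traf5 was downregulated as well, from 39 counts to 4 and 8.

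Of the 10 receptors of the TNF family, 3 were upregulated and 1 was downregulated in each line. Both TNF receptors were higher, Tnfrsf1a with 256, 762 and 756 counts and Tnfrsf1b with 286.82, 797.84 and 2039.2. Cd27 had 149, 1.39 and 1 counts, so that it was lower by at least 50.4-fold and 46.4-fold when 3 counts are taken as the floor per library.

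Of the 10 ligands, 5 were upregulated and 1 was downregulated in TR1, and 3 and 2 in TR9. Tnfsf13, which encodes APRIL, had 46, 278.44 and 304.9 counts and was upregulated in both lines. Il1a, which encodes interleukin-1α, was listed with 53 counts in control but was at 0 in TR1 and TR9, which is at least 17.9-fold and 16.5-fold lower. Tnfsf13b, which encodes BAFF, had 1, 61 and 75.1 counts and was upregulated in both.

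Of 32 genes known as NF-κB targets, 28 were listed. Of the 27 tested in TR1, 5 were upregulated and 3 downregulated, and of the 26 tested in TR9, 6 and 4. Cxcl1, Cxcl3, Ccl22 and Csf2 were at 0 in every library. Several others, among them Cxcl2, Cxcl10, Ccl2, Ccl4, Ccl5, Il6, Il12b and Il23a, had at most 8 counts in any library. These were limited by depth, and none of those named was called. Gadd45b, a stress-response gene, had 60, 655 and 474 counts in control, TR1 and TR9, with log2 ratios of 3.42 and 3.08. Vcam1, an adhesion molecule, had 471, 3139 and 5110 counts, with log2 ratios of 2.71 and 3.54. Ptgs2, the inducible cyclooxygenase, had 4, 43 and 36 counts, with log2 ratios of 3.44 and 3.30. With a pseudocount of 1 FPKM its log2 ratio in TR1 was 1.28. The downregulated targets, named after their values were seen, were Ccl3, Sod2 and Fth1 in TR1 and Icam1, Cd44, Csf1 and Fth1 in TR9. Their number in TR1 was close to the share over all genes and depended on the setting, with 1 under TMM scaling, 5 under TPM and 0 in the exact test of edgeR. In TR9 it was 3, 4 and 2.

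**Figure D5:**
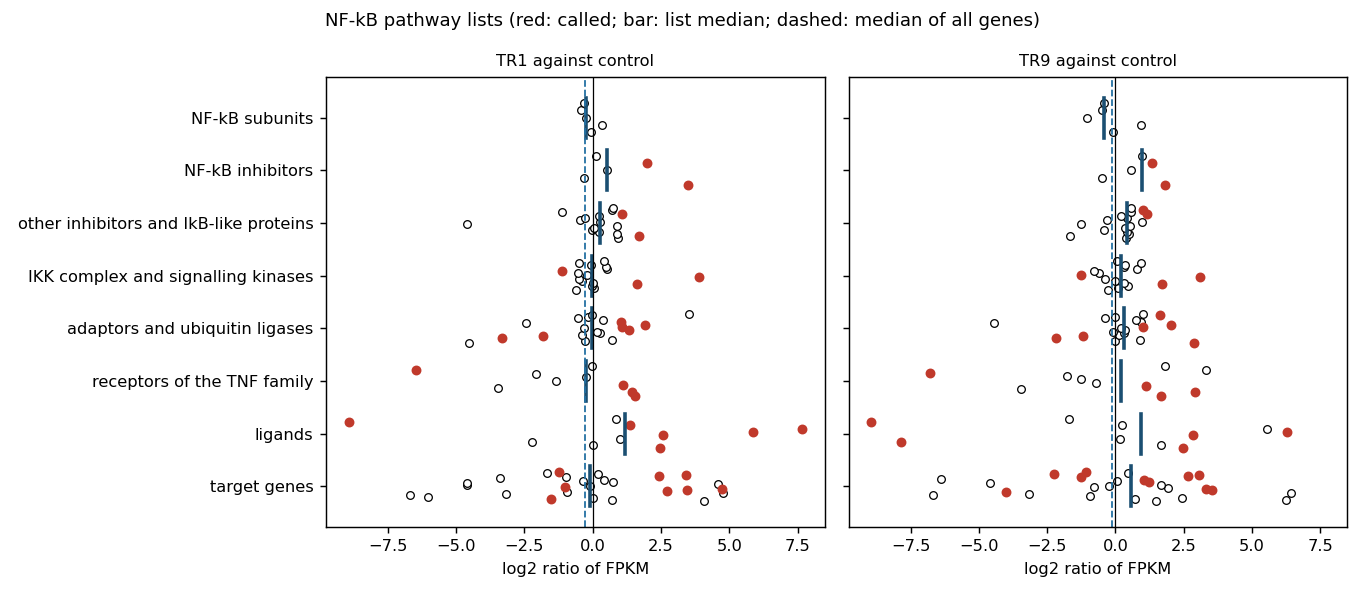
log2 ratio of FPKM against control for each gene of the 8 NF-κB lists that could be tested, in TR1 and TR9. Filled points were called, vertical bars are list medians and the dashed line is the median of all genes. Genes at 0 in a library are placed by the 0.01 FPKM set in place of 0. The 5 subunits lie between -1.03 and 0.93, and the ligands spread widest in both lines.

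Markers of other cell types moved between the same libraries, and their part in the levels of Nfkbia and the other members was not tested. Besides the late granulocyte markers given above, monocyte and macrophage markers, 8 of 8 above 0 in each library, summed to 212.9, 740.6 and 386 FPKM in control, TR1 and TR9. That sum, which also had the order of Nfkbia and Nfkbiz, was mostly F13a1 and Cd68. Csf1r, a defining gene, was lower in the TR libraries, with 510, 141 and 81 counts. Primary granule markers, which define promyelocytes, were at 4251, 21278 and 23700 FPKM. Erythroid markers summed to 2186, 8.36 and 12.96 FPKM, with Alas2 at 0 in both TR libraries. Megakaryocyte markers summed to 929.9, 3.19 and 1.97 FPKM, with Pf4 at 0 in both TR libraries. Stem and progenitor markers summed to 231 FPKM in control and 38.6 and 71.04 in TR1 and TR9. Kit made up most of the latter sums, at 29.13 FPKM in TR1 and 62.55 in TR9. It was called lower than control in TR1 but not in TR9. Of the B cell markers, Cd79a and Cd79b were at 0 in both TR libraries, whereas Igll1 had 2, 63 and 847 counts in control, TR1 and TR9. T and NK cell markers summed to at most 6.22 FPKM in any library. Dendritic cell markers summed to 94.53 FPKM in control and 41.82 and 51.59 in TR1 and TR9. Most of this was Irf8 in control (67.96 FPKM) and TR9 (44.16) but Flt3 in TR1 (38.44). Against control, Flt3 was upregulated in TR1 and downregulated in TR9, and Irf8 was downregulated in TR1 only. Zbtb46 and Cd209a were at 0 in both TR libraries. Stroma and endothelium markers summed to 545.4, 54.39 and 264.9 FPKM, with Pecam1 as most of the sum in both TR libraries.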

How the data were processed

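RNA was sequenced from 3 libraries, 1 per condition, each of 3 pooled mice. Reads were filtered by the authors, who used BWA and Bowtie for mapping and RSEM for quantification. Per the labels, mm9 was among the genome builds, and software versions are not given in the sources used here. The authors deposited expected counts, which are estimates without normalization, and FPKM, scaled by RSEM for gene length and library total. Only genes above 0 are listed, and others were taken as 0. Totals were 5488778 (control), 5571409 (TR1) and 5129662 (TR9), and 3 counts were taken as the floor. Intervals and floors cover counting error only.

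Of 16742 NCBI Gene IDs, 16698 matched the RefSeq table of GRCm38.p6, which gave names and promoter sequences. Protein sequences were not used here. Rounded counts were compared by an exact Poisson test conditional on their sum (scipy 1.17.1), two-sided by doubling the smaller tail, with Benjamini-Hochberg adjustment over all genes listed in either library. Log2 ratios used FPKM, with values under 0.01 set to 0.01. The steps were tested on simulated counts. The listed length of Nfkb2, Nfkbiz and Tnfaip3 differed between libraries, and ratios of expected counts were therefore added as an alternative after seeing the data. The other alternatives used TMM factors or the exact test of edgeR 4.0.16, the median of ratios, TPM, a pseudocount, a count minimum and another false discovery rate.

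The members and lists were chosen with earlier results of these data known. All 10 members are named. From each other list, up to 3 genes were named that were called alike in both lines, had at least 20 counts in a library and had the largest mean change. For the member with the largest change, the 3 genes nearest to it were also named. Bcl3, Chuk, Ikbkb, Ikbkg, Tab1, Tab3, the downregulated targets and the targets at low counts were chosen after their values were seen. Marker genes were named where they define a list or where their level bears on its sum.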

Additional observations from a re-analysis of the deposited data

Results flagged for a closer look

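Nfkbia differed between the TR lines in its effect against the shared control. Its log2 ratio of TR9 against TR1 was -1.68 (95% counting interval -1.87 to -1.49), from 1057 expected counts in TR1 and 304 in TR9. The test compares these 2 libraries, and no second library of either line gives the spread between pools of mice.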

How the results depend on the processing

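The 3 comparisons were repeated under 7 other settings. In TR1 against control, 1 member in place of 2 was upregulated in edgeR's exact test with an assumed variation of 0.2. In TR9 against control, the number of upregulated members was 4 with TMM scaling and 4 with the median of ratios, and it was 1 with a pseudocount of 1 FPKM and 1 in edgeR's exact test. One member, Rel, was downregulated in TR9 at a false discovery rate of 0.05, so that the number was 1 in place of 0. Between TR9 and TR1, edgeR's exact test left Nfkbia uncalled. Its log2 ratio of -1.68 was past 2-fold, but the gene did not pass the false discovery rate of 0.001. The cause of these changes was not tested. The members' median log2 ratio ranged from -0.19 to 0.29 in TR1, from 0.13 to 0.35 in TR9 and from -0.24 to 0.02 in TR9 against TR1.

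Ratios that changed sign were all close to 0. With TMM scaling, Nfkb1 was at 0.19 in TR1 and 0.0093 in TR9, Ikbkg was at 0.22 in TR1 and Nfkbie was at -0.0913 in TR9 against TR1. With the median of ratios, Nfkb1 was at 0.18 and Ikbkg at 0.21 in TR1, and Nfkbie was at -0.0922 in TR9 against TR1. With TPM scaling, Tnfaip3 was at -0.0921 and Ikbkb at -0.18 in TR1, Ikbkb was at -0.0270 in TR9, and in TR9 against TR1 Nfkb1 was at 0.082, Rela at 0.023 and Relb at 0.025. Of 239 values of members under the alternatives, 221 kept their direction and their side of the threshold. Ratios of expected counts, read with the adjusted p of the main setting, changed none of the 30 values. The exact test of edgeR, the count minimum and the other false discovery rate reused the main ratios. A pseudocount cannot turn a sign, so that the direction was fixed under these settings. The 9 reversed values all came with TMM, median of ratios or TPM scaling. Of the 336 values of other named genes, 313 kept their direction and their side of the threshold. The upregulated genes among the other pathway genes numbered 10 to 25 in TR1 and 11 to 24 in TR9. The downregulated ones numbered 4 to 12 in TR1 and 4 to 13 in TR9. Relb, with 10 counts or fewer, was limited by depth, and it was not tested between TR9 and TR1 with a minimum of 10 counts. No paired analysis was possible because each condition had 1 library, and no library could be left out for the same reason.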
